A study of Mus musculus with 8 samples.

Results

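RNA-seq was used to compare LSK cells with LK cells from the bone marrow of wild-type (WT) mice, that is, the stem and multipotent progenitor compartment with the pool of more committed myeloid progenitors. The comparison held 4 of the 8 libraries in the series and was defined by genotype and sorted population: WT LSK replicates 1 and 2 and WT LK replicates 1 and 2, with 2 libraries per population. The other 4 libraries were LSK and LK cells from Ripk3-KO mice and were used only beside the WT result. All mice had the strain background given as CD57BL6/J, and no transgene or Cre was named for the WT mice. Both WT populations were Lin- Kit+ marrow cells, sorted by flow cytometry after removal of cells carrying Gr1, CD11b, CD3, B220 or Ter119. LSK cells were in addition Sca1+, and LK cells were Sca1- according to the study's methods, while the sample labels give only Lin- Kit+. The labels state that RNA was taken from untreated mice. The study's methods place the RNA-seq cells in a series of weekly low doses of X-rays with collection about a month after the last one, for WT and Ripk3-KO mice alike, and nothing in the files settles which holds. Age, the number of mice behind a library and any pooling were not given in the sources used here, so the p-values below measure the spread between these libraries only. In the fit, the spread of a gene is in part drawn towards that of genes at a similar level. A gene with uneven replicates can therefore still pass.

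LSK cells hold the hematopoietic stem cells, which renew themselves and are mostly out of cycle, together with the multipotent progenitors they give rise to, some of which already lean towards lymphoid or myeloid fates. LK cells are mostly common myeloid, granulocyte-monocyte and megakaryocyte-erythroid progenitors, which divide rapidly and have begun to make the granule proteins of neutrophils or the heme and membrane proteins of red cells. Sca1 is a surface protein anchored by lipid and made from Ly6a, and Kit is the receptor for stem cell factor. Because each library is a mixture, fewer cells of a type and less RNA per cell cannot be told apart in any value below.

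The WT LSK libraries held 9782166 and 9825593 reads in genes and the WT LK libraries 15680931 and 13113942. LSK libraries had more genes with reads, 19999 and 20145 against 18254 and 19046, although they were shallower. Mpo alone took 5.13% and 4.69% of all reads in LK and 0.517% and 0.554% in LSK, where Fos was the gene with most reads at 0.734% and 0.746%. Levels are given as CPM, the reads of a gene relative to all reads of its library, with library composition balanced by the trimmed mean of M-values (TMM) over the 4 libraries, with no division by gene length, so they compare a gene between libraries and not one gene with another. Differences are the log2(CPM + 1) of LSK minus that of LK, which understates the change of genes near 1 CPM. Replicates had a Pearson r of 0.926 in LSK and 0.967 in LK over 15913 genes, and libraries of different populations 0.895 to 0.900. Between replicates of a population the chi-square per degree of freedom was 22.0 over 18730 genes in LSK and 25.1 over 16379 genes in LK. Over these genes together the spread was thus well above counting error. It was not split by level of expression, and counting error weighs more in weakly expressed genes.

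Of 15913 genes with a mean of at least 1 CPM, 1341 were higher and 2229 were lower in LSK than in LK (limma, Benjamini-Hochberg adjusted p under 0.05), which is 8.43% and 14.0% of the genes tested. A change of at least 2-fold was seen in 1242 of the higher and 1207 of the lower genes, and one of at least 8-fold in 81 and 55. The groups did not overlap in 10196 genes, 64.1% of those tested. The split between higher and lower genes depended on how the libraries were scaled: 37.6% of the called genes were higher in LSK with TMM, 38.9% with DESeq2 size factors, 50.8% after quantile normalization, 70.5% with the values as deposited and 72.8% when only library size was used. Relative to TMM, scaling by library size alone moved the median of all genes from 0.08 to 0.46 on the log2 scale. No called gene was called in the opposite direction under any of these scalings, and 571 genes were higher and 641 lower under every one of them. The counts fell to 277 higher and 869 lower without WT LSK replicate 1, to 60 and 276 without WT LSK replicate 2, and to 657 and 1082 without WT LK replicate 1. A population is left with 1 library in these fits, which is assumed to vary like the other.

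The difference between the populations also moved with the level of expression. Genes with a mean of 2 to 5 CPM had a median difference of 0.99 and were called higher in 12.4% of cases and lower in 0.964%. Genes of 100 CPM or more had a median of -0.54 and were called lower in 46.8% of cases and higher in 5.11%. With library size alone the medians of these classes were 1.27 and -0.11. LSK thus had the higher values among weakly expressed genes and the lower ones among strongly expressed genes. Olfactory receptor genes, a family with 1094 names in the files that was looked at after seeing this pattern, had reads in 220 and 208 members in LSK and in 103 and 135 in LK, with summed levels of 317 and 230 CPM against 57.8 and 99.0 CPM. The part of this general shift in the results below was not tested, and each list is therefore given with its level median, the median over its tested members of the median difference in each member's class of level. Counts of called members are to be read beside the shares over all genes tested, 8.43% higher and 14.0% lower, and those of the level classes.

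**Figure D1:**
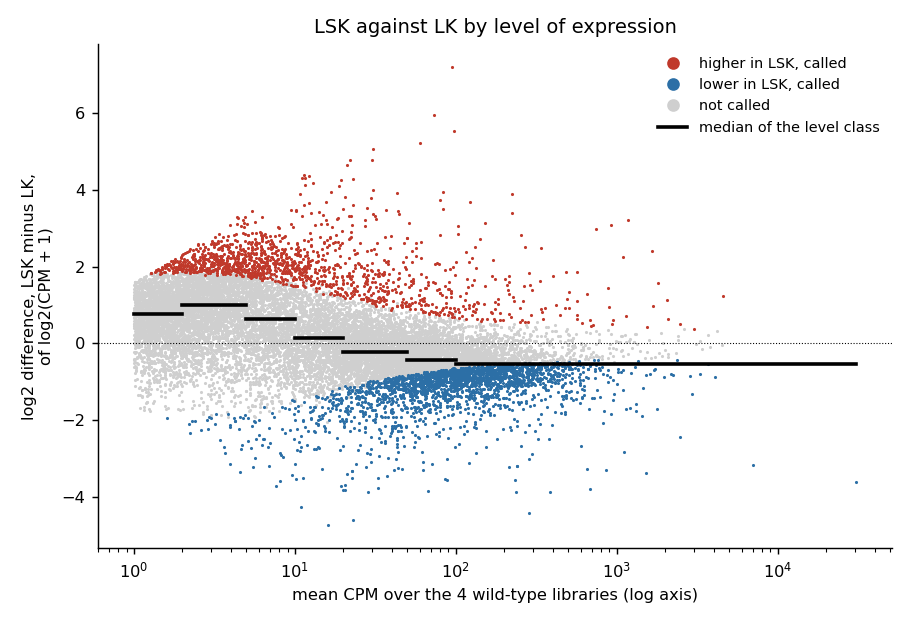
Each point is one of 15913 genes, with its mean CPM over the 4 WT libraries on a log axis and its log2 difference, LSK minus LK, on the vertical axis, and the black bars are the medians of 7 level classes. The bars go from 0.76 for genes of 1 to 2 CPM, through 0.99 for those of 2 to 5 CPM, down to -0.54 for genes of 100 CPM or more.

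The genes behind the sort gates followed the gates. Ly6a, which encodes Sca1, stood at 122 and 167 CPM in the LSK libraries and at 1.99 and 0.852 CPM in the LK libraries. Every LSK library was far above every LK library, a mean of 102-fold, with a log2 difference of 5.93 ± 0.43 (SE, limma adjusted p = 6.36e-09). Reads of close Ly6 relatives may be shared with it. Kit, on which both populations were selected, was at 194 and 259 CPM in LSK and at 286 and 264 CPM in LK, and these values did not pass the test (log2 difference -0.29, which turned positive with library size alone, the deposited values and quantile normalization, adjusted p = 0.273). This is the pattern the sort fixes and no finding about the cells.

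Surface proteins that divide the 2 populations further were measured without being part of either gate. Fcgr3 and Fcgr2b encode the low-affinity IgG Fc receptors that mark granulocyte-monocyte progenitors. Fcgr3 was at 39.6 and 53.9 CPM in LSK and at 433 and 428 CPM in LK, a log2 difference of -3.19 (adjusted p = 2.55e-09). Fcgr2b was at 15.5 and 26 CPM against 120 and 104 CPM, a log2 difference of -2.42. Both LSK libraries lay below both LK libraries for each gene. Flt3, the receptor of lymphoid-primed multipotent progenitors, was at 482 and 411 CPM in LSK and at 62.4 CPM in both LK libraries, a log2 difference of 2.81 (adjusted p = 5.74e-09). Cd27, a TNF receptor relative found on early progenitors, was 1.67 higher in LSK and Il7r, the IL-7 receptor alpha chain of lymphoid progenitors, 2.50 higher. Il7r was low, at 9.9 and 5.9 CPM against 1.38 and 0 CPM, and was called in 9 of 17 alternative settings. Cd34 was high in both populations, at 827 and 838 CPM in LSK and 617 and 569 CPM in LK, and its difference of 0.49 passed the test. Itga2b, the integrin CD41 of megakaryocytes and their progenitors, was lower in LSK by 1.60. The SLAM markers were less clear. Slamf1 (CD150) was at 20.3 and 8.45 CPM against 3.91 and 10.7 CPM, so that the groups overlapped (adjusted p = 0.256), and the lower level of Cd48 in LSK, -0.53 at an adjusted p of 0.0495, was called in 3 of 17 alternative settings. Cd9 was higher by 0.63, and Thy1, Eng and Ptprc did not pass. The list of 15 surface markers also holds Ly6a and Kit, whose values the sort fixed. Of the 15, 6 were higher, Ly6a among them, and 4 were lower. The list median, with both gate genes included, was 0.49 and its level median -0.54.

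Of the genes of the lineage cocktail 4 could be tested, and 2 were lower in LSK, with a level median of -0.05. Ly6c2, one of the Ly6C antigens that the Gr1 antibody can bind, was at 274 and 276 CPM in LSK and at 1793 and 2118 CPM in LK, a log2 difference of -2.82 (adjusted p = 9.14e-11). Both LSK libraries lay far below both LK libraries for it. Itgam (CD11b) at -0.37, which was positive with library size alone or without WT LSK replicate 1, and Cd3e at 0.89 did not pass, and Ly6c1 was too low to be tested.

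**Figure D2:**
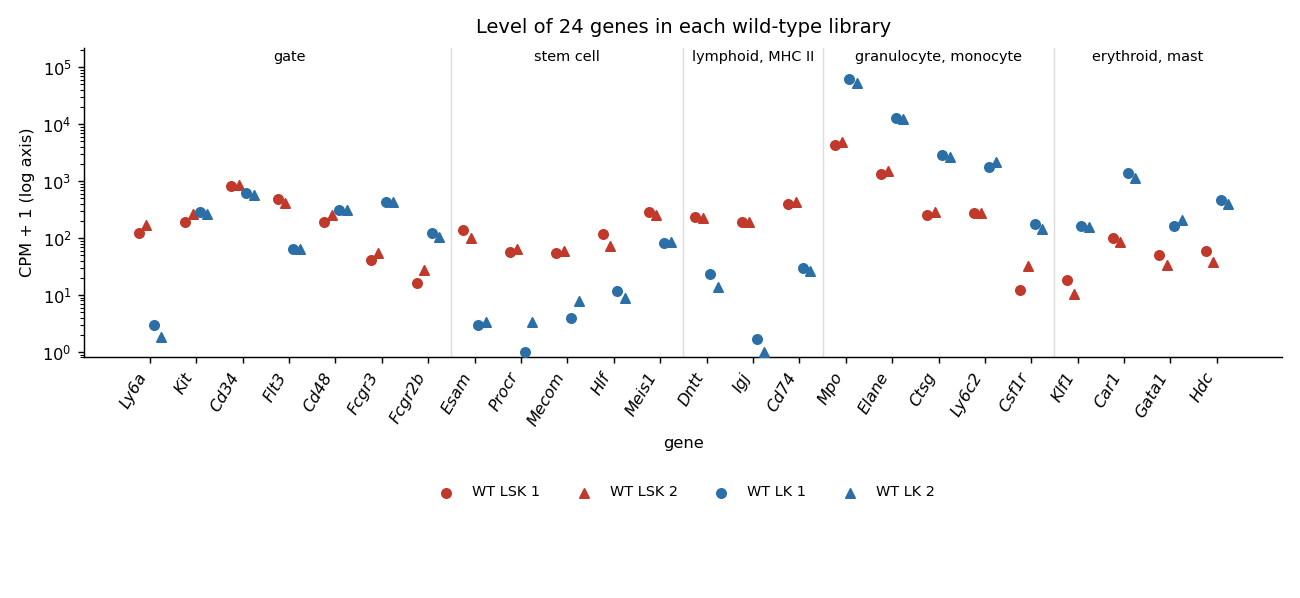
Level of 24 genes in each of the 4 WT libraries, as CPM + 1 on a log axis, with LSK libraries in red, LK libraries in blue, replicate 1 as circles and replicate 2 as triangles. LSK and LK points lie close for Kit, Cd34 and Cd48 and far apart for Ly6a, Esam, Procr and Igj, of which Procr and Igj each reach the bottom of the axis in 1 LK library, where a value of 0 CPM is drawn at 1.

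Genes known for their place in hematopoietic stem cells were higher in LSK. Of 40 such genes 39 were tested, 30 were higher (8.43% of all genes tested were) and none was lower, with a median log2 difference of 1.86, where genes of the same levels had a median of -0.24. Under the other 4 scalings none of them was lower either, and their medians lay between 1.86 and 2.29. Esam, an endothelial junction protein carried by stem cells, was at 138 and 97.3 CPM in LSK and at 1.99 and 2.30 CPM in LK, a log2 difference of 5.22 (adjusted p = 2.15e-08). Procr, the protein C receptor used to purify stem cells, was at 55.7 and 64.2 CPM against 0 and 2.39 CPM, a difference of 5.05. These are the largest differences in the list, and both genes were nearly confined to LSK in these 4 libraries. Ndn, a growth suppressor of the MAGE family, was at 23.0 and 22.4 CPM against 0.306 and 0 CPM. Nkx2-3, a homeobox gene, was at 23.2 and 27.7 CPM against 0.613 and 0.341 CPM.

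The stem cell regulators with well-known roles in self-renewal were among the 30. Mecom, a zinc finger factor required to keep stem cells, was at 53.5 and 59.0 CPM in LSK and at 2.91 and 6.81 CPM in LK, a log2 difference of 3.37 (adjusted p = 1.86e-05). Hlf, a PAR bZIP factor, was at 115 and 70.1 CPM against 11 and 7.92 CPM, a difference of 3.14. Neither gene overlapped between the populations. Meis1, the HOX cofactor, was 1.68 higher and Angpt1, a ligand of the Tek receptor, 1.51 higher. Not all stem cell genes were apart: Gata2 was at 194 and 169 CPM against 217 and 204 CPM (adjusted p = 0.433), and Bmi1, Abcg2, Tek, Vwf, Erg, Neo1, Hoxb5 and Slamf1 did not pass either. Clca1 had no read in any of the 4 libraries.

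HOX genes of the A and B clusters, whose proteins act with Meis1, were weakly expressed. Of 21 genes, 10 reached 1 CPM and were tested, 4 were higher in LSK and none was lower. Hoxa10 was at 31.4 and 18.2 CPM in LSK and at 2.53 and 1.45 CPM in LK, a log2 difference of 3.08 (adjusted p = 0.000527). Hoxa5 differed by 2.49, Hoxb2 by 1.86 and Hoxa9 by 1.44. All 10 had a positive difference with a median of 1.42, but genes of such low levels had a median of 0.87. Hoxa9, at 49 and 50 CPM in LSK against 16.4 and 18.9 CPM in LK, was the called member with the highest level. Genes of 20 to 50 CPM, its class, had a median of -0.24, and those of 10 to 20 CPM, the class of Hoxa10, 0.14.

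Stem cells share many genes with endothelium, and these were mostly higher in LSK. Of 20 genes tested, 12 were higher and 1 was lower, with a median of 1.56 and a level median of -0.24. Besides Esam and Procr, Robo4, a guidance receptor of vessels, was 3.35 higher and Emcn, the sialomucin endomucin, 3.32 higher. Tie1, Kdr, Jam2, Jam3, Egfl7, Eltd1 and Gpr56 were higher too, the last an adhesion receptor at 1131 and 1236 CPM against 560 and 668 CPM. Pecam1 (CD31) went the other way, at 47.9 CPM in both LSK libraries and at 88.9 and 85.6 CPM in LK, a difference of -0.85 that was not called with library size alone, the deposited values or quantile normalization. Cdh5, the VE-cadherin that defines endothelial cells, was at 3.02 and 1.44 CPM in LSK and 1.53 and 1.87 CPM in LK, so that LSK did not stand above LK for it.

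Genes of early lymphoid priming gave the largest difference in the data. Igj, the joining chain of polymeric immunoglobulins, which is known to be transcribed in lymphoid-primed progenitors, was at 190 and 189 CPM in LSK and at 0.689 and 0 CPM in LK, a log2 difference of 7.20 ± 0.45 (SE, adjusted p = 7.00e-10). Dntt, the terminal transferase that adds nucleotides at antigen receptor joints, was at 228 and 227 CPM against 22.3 and 12.6 CPM, a difference of 3.68. The LSK replicates were close to each other for both genes, and LK was far below. Ccr9, the thymus homing receptor, was 2.56 higher and Satb1, a chromatin organizer of lymphoid progenitors, 1.10 higher. Of the 22 lymphoid genes tested, 8 were higher and 2 were lower, with a median of 1.13 where genes of their levels had -0.33. Tcf3, the E2A factor, was among the lower ones at -0.87, and it was not called with library size alone, the deposited values or quantile normalization. Among the members that did not pass, Rag1 was at 2.50 and 0.0899 CPM in LSK, Rag2 at 0.948 and 7.65 CPM and Ebf1 at 3.79 and 1.44 CPM, while some markers of B and T cells were higher in LSK, as given with the other marrow cells.

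The MHC class II genes, which present peptides to CD4 T cells and are best known from B cells and dendritic cells, were higher in LSK as a group. Of 10 genes 8 were higher and none was lower, with a median of 2.02, the highest of the 28 lists, and a level median of -0.42. H2-Aa was at 133 and 182 CPM in LSK and at 13 and 6.56 CPM in LK, a log2 difference of 3.93 (adjusted p = 8.23e-08). Cd74, the invariant chain that guides class II molecules, was at 402 and 435 CPM against 28.5 and 25.7 CPM, a difference of 3.90 (adjusted p = 1.66e-10). H2-Eb1 differed by 3.44 and Ciita, the master activator of these genes, by 2.72. The 2 genes that did not pass, H2-DMb1 at -0.08 and H2-DMb2 at 0.52, are near-identical copies whose reads may be shared.

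**Figure D3:**
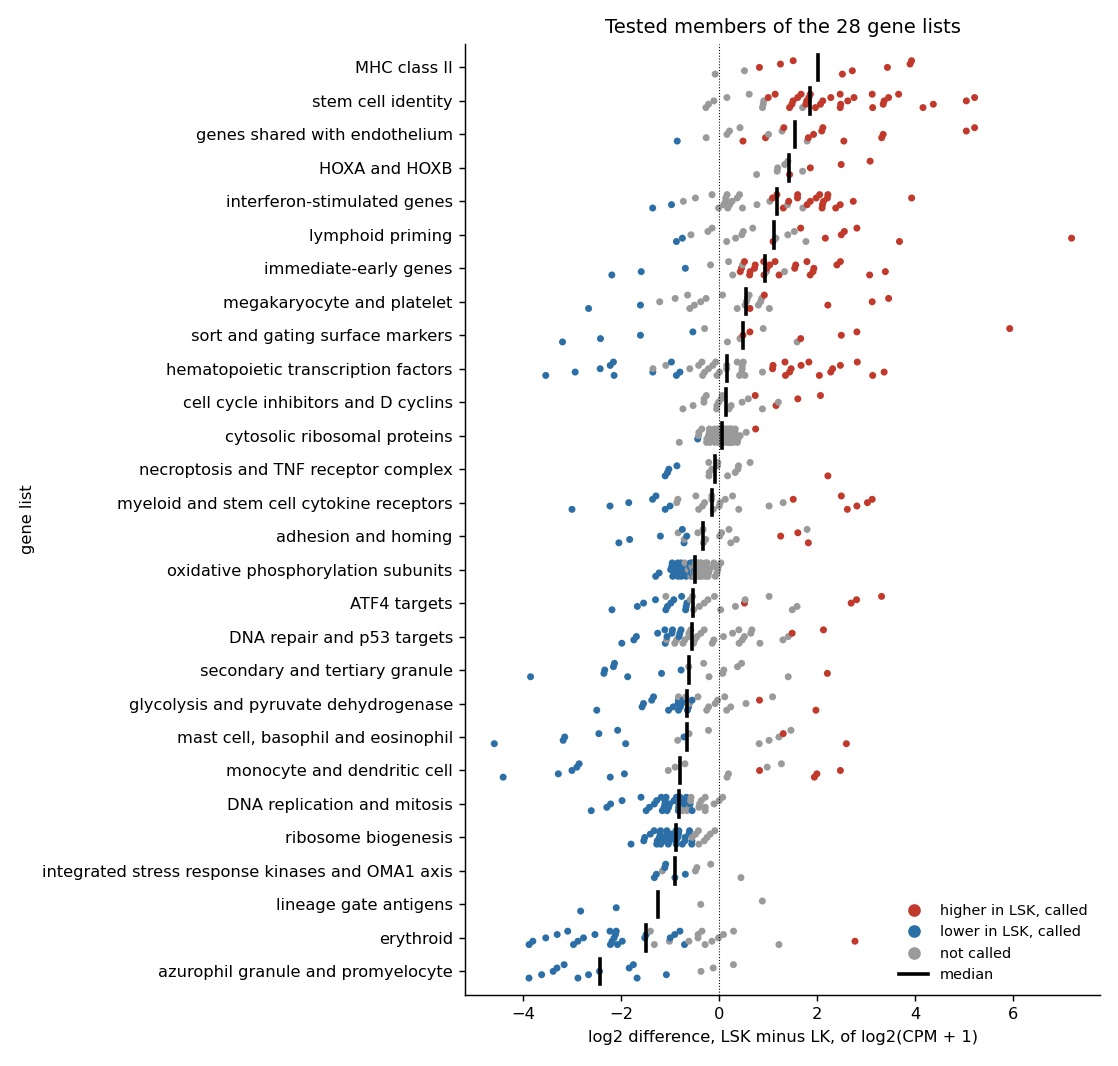
Log2 difference, LSK minus LK, of every tested member of the 28 gene lists, ordered by the list median (black bar), with called members in red or blue and the others in grey. MHC class II genes (median 2.02) and stem cell genes (1.86) are at the top, and erythroid (-1.49) and azurophil granule genes (-2.44) at the bottom.

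The proteins of the azurophil granule, which promyelocytes make to kill and digest microbes, were the strongest contrast in the other direction. Of 15 genes tested, 12 were lower in LSK (14.0% of all genes tested were) and none was higher, with a median log2 difference of -2.44 where genes of their levels had -0.54. With library size alone, the deposited values or quantile normalization the same number was lower and 1 was higher. Mpo, the myeloperoxidase, was at 4358 and 4899 CPM in LSK and at 61570 and 52340 CPM in LK, a log2 difference of -3.62 ± 0.12 (SE, adjusted p = 4.45e-14). Elane, the neutrophil elastase, was at 1306 and 1519 CPM against 13000 and 12210 CPM, a difference of -3.16 (adjusted p = 1.26e-12). Ctsg (cathepsin G) was at 250 and 281 CPM against 2861 and 2689 CPM, a difference of -3.38, and Prtn3 (proteinase 3) at 724 and 808 CPM against 4367 and 3938 CPM, a difference of -2.44. The LSK libraries were below the LK libraries for all 4 genes, yet each had well over 200 CPM in LSK. Hp (haptoglobin) was lower by 3.88 and Ms4a3, a membrane protein of granulocyte-monocyte progenitors, by 3.31. Lyz2, Ctsc and Srgn did not pass, and Lyz2 was on the higher side in LSK, at 731 and 683 CPM against 587 and 566 CPM.

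The promoters of these 4 genes are shown as a description only, with matches to motifs of several factors. PU.1, an ETS factor, is encoded by Sfpi1. Whether any of these factors lies behind the shared direction of the genes was not tested. The sequences are the 250 bases before the transcription start from RefSeq (GRCm38.p6), written 5′ to 3′ on the gene's strand, with capitals for matches on either strand to GAGGAA, the core of sites bound by PU.1, to TTNNGNAA for C/EBP, to TGTGGT for RUNX or to AGATAA for GATA. Mpo lies at chr11:87793534-87793783 on the plus strand, Elane at chr10:79886062-79886311 and its neighbour Prtn3 at chr10:79879417-79879666, both on the plus strand, and Ctsg at chr14:56102575-56102824 on the minus strand.
Mpo: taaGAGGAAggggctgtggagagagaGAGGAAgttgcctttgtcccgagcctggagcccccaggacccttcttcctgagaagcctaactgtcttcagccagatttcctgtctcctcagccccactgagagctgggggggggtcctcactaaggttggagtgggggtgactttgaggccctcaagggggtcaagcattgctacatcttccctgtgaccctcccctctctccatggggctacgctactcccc
Elane: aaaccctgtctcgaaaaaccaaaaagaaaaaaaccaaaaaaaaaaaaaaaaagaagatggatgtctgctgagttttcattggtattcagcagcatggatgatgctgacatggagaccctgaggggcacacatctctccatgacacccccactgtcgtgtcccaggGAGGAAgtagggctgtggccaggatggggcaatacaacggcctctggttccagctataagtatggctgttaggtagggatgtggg
Prtn3: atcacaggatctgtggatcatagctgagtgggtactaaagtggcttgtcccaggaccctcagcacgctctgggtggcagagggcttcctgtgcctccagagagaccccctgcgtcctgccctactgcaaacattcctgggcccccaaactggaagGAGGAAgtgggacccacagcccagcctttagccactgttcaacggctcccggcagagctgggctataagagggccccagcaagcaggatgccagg
Ctsg: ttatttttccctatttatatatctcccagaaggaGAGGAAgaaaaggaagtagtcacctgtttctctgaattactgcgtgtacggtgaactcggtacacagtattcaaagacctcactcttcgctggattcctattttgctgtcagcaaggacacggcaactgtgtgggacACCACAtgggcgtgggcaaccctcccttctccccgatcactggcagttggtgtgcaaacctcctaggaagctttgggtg
GAGGAA was found in all 4 windows, beginning 247 and 224 bases before the start in Mpo, 85 in Elane, 95 in Prtn3 and 216 in Ctsg, and 23.3% of the 32851 promoters in the table held it. The only other match was to TGTGGT, on the opposite strand in Ctsg, a motif present in 14.0% of all promoters. TTNNGNAA, present in 36.8%, and AGATAA, present in 9.99%, were in none of the 4 windows. None of the motif matches overlapped another motif, and a match describes letters and not binding.

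Genes of the later granules and of mature neutrophils were less uniform. Of 17 secondary and tertiary granule genes tested, 8 were lower and 1 was higher, with a median of -0.62 and a level median of -0.42. Ltb4r1, the leukotriene B4 receptor, was at 9.66 and 6.30 CPM in LSK and at 125 and 127 CPM in LK, a difference of -3.85. Fcnb (ficolin) was lower by 2.35, Cebpe, the factor that turns on secondary granule genes, by 2.15, and Cd177 by 2.33, although Cd177 was at 6.81 and 0.0899 CPM in the 2 LSK libraries. The lactoferrin gene Ltf, Lcn2, Camp, Ngp and S100a9 did not pass. Padi4, the deiminase of neutrophil chromatin, was the member that was higher in LSK, at 98.1 and 102 CPM against 28.3 and 15.3 CPM, a difference of 2.21 (adjusted p = 4.75e-05).

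Monocyte and dendritic cell genes gave calls in both directions. Of 18 tested, 7 were lower and 4 were higher in LSK, with a median of -0.79 and a level median of -0.24. F13a1, the coagulation factor XIII A chain carried by monocytes, was at 23.4 and 26 CPM in LSK and at 575 and 511 CPM in LK, a difference of -4.40 (adjusted p = 2.55e-11). Csf1r, the M-CSF receptor, was at 11 and 30.8 CPM against 173 and 140 CPM, a difference of -3.0. The accessory protein gene Ly86 was lower by 3.28 and the chemokine receptor gene Cx3cr1 by 2.90. The higher genes were Klf4 at 2.48, S100a4 at 2.0, Cd209a at 1.95 and Tcf4, the factor of plasmacytoid dendritic cells, at 0.83. Cd209a was called in 8 of 17 alternative settings.

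Among genes of mast cells, basophils and eosinophils, 7 of 16 were lower and 2 were higher, with a median of -0.66 and a level median of 0.14. Epx, the eosinophil peroxidase, was at 1.47 and 0.450 CPM in LSK and at 49.95 and 39.4 CPM in LK, a difference of -4.58 (adjusted p = 5.38e-06). Hdc, which makes histamine, was at 57.8 and 37.5 CPM against 461 and 401 CPM, a difference of -3.18, and Cpa3, the mast cell carboxypeptidase, differed by -2.45. Ms4a2, the beta chain of the IgE receptor, had no read in either LSK library, where 3 reads would be 0.307 and 0.305 CPM before balancing for composition, and stood at 6.97 and 8.86 CPM in LK. The mast cell tryptase gene Tpsb2 and Prss34, a basophil protease, went the other way, by 2.60 and 1.31, with Prss34 at 93.6 and 135 CPM against 54.2 and 36.7 CPM.

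Erythroid genes were lower in LSK from the transcription factors to the heme pathway and the red cell membrane. Of 37 genes tested, 23 were lower and 1 was higher, with a median of -1.49 where genes of their levels had -0.24. Klf1, the master factor of the red lineage, was at 17.2 and 9.35 CPM in LSK and at 165 and 152 CPM in LK, a difference of -3.54 (adjusted p = 1.19e-07). Car1, carbonic anhydrase 1, was at 97.9 and 82.8 CPM against 1401 and 1144 CPM, a difference of -3.80 (adjusted p = 1.47e-11). Kel and Rhd, which encode blood group proteins, were lower by 3.88 and 3.30. All LSK values of these genes lay below all LK values. Epor, the erythropoietin receptor, was lower by 2.22 and Gata1 by 2.14, and the heme enzyme gene Cpox was lower by 2.07. Globin genes were low in both populations, with Hbb-b1 at 6.81 and 10.2 CPM in LSK and 3.29 and 2.73 CPM in LK, and the globin copies share reads. Car2, the other abundant carbonic anhydrase, was at 1394 and 1283 CPM against 1468 and 1234 CPM and did not pass. The gene that was higher in LSK was Cnrip1, a cannabinoid receptor binding protein, at 2.77.

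Megakaryocyte genes did not move as a group. Of 24 tested, 5 were higher and 2 were lower, with a median of 0.55 and a level median of -0.24. Among the higher genes were Mmrn1, which is also in the stem cell list, Thbs1, F2r and Cd9. Mmrn1, the platelet protein multimerin, was at 68.9 and 66.6 CPM in LSK and at 2.99 and 8.77 CPM in LK, a difference of 3.46. Serpine2, a protease inhibitor, and Itga2b were lower in LSK, by 2.66 and 1.60. Pf4, the classical platelet factor, was at 67.3 and 117 CPM against 129 and 124 CPM, and Nfe2 at 544 and 562 CPM against 460 and 396 CPM, and neither passed.

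Transcription factors of hematopoiesis gave calls in both directions. Of 47 tested, 15 were higher and 10 were lower in LSK, with a median of 0.16 and a level median of -0.42. After Mecom and Hlf the largest positive differences were those of Tcf15, a basic helix-loop-helix factor, at 2.82, Klf4 at 2.48 and Gata3 at 2.32, and the Id proteins Id1, Id2 and Id3, which hold back helix-loop-helix factors, were all higher, by 2.05, 1.36 and 2.28. Lmo2, a bridging partner of Tal1, was at 725 and 810 CPM against 375 and 343 CPM, a difference of 1.09. The lower genes were mostly factors known from single lineages. Besides Klf1 and Gata1 they were Gfi1 at -2.94, Cebpd at -2.42, Irf8 at -2.22, Cebpe at -2.15 and Sfpi1 at -1.35, the last at 117 and 153 CPM against 366 and 322 CPM, and in smaller measure Myb, Tcf3 and Gfi1b. Factors shared by the whole system did not pass, among them Runx1 at -0.29, Tal1 at -0.04, Fli1 at -0.60, Ikzf1 at 0.16 and Myc at -0.33. Cebpa at -1.35 was close to the threshold (adjusted p = 0.0544). Cebpb was uneven between the LK libraries, at 60.4 and 1.28 CPM, and Gfi1 less so, at 79.5 and 40.0 CPM. In the Ripk3-KO libraries the LSK minus LK difference of Gfi1 was -0.04. Its difference between genotypes passed the test (KO minus WT 2.90, limma adjusted p = 0.0324).

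Cytokine receptor genes were nearly balanced between the populations. Of 29 tested, 6 were higher, 7 were lower and 16 did not pass, with a level median of -0.24, and the sign of their median, -0.15, turned positive when library size, quantile or the deposited scaling was used. Among the higher ones were Flt3, Il7r, Il18r1 at 3.03, Il1r1 at 2.62 and Il2rg at 1.51, the last at 434 and 427 CPM against 167 and 135 CPM. The lower ones were Csf1r, Epor, Ifngr1 at -1.84, Csf2ra at -1.35, Csf2rb at -1.29, Tnfrsf1b at -1.10 and Il6ra at -1.0. Csf3r, the G-CSF receptor, was at 178 CPM in both LSK libraries and at 250 and 245 CPM in LK (adjusted p = 0.0741).

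Adhesion and homing genes gave 3 higher and 6 lower members of 21, with a median of -0.32 that turned positive under the same 3 scalings and a level median of -0.42. Vcam1, the ligand of the integrin VLA-4, was at 17.9 and 13.9 CPM in LSK and at 67.3 and 69.3 CPM in LK, a difference of -2.04, and Itgal (LFA-1) differed by -1.82. Cdh2 at 1.82, Alcam at 1.61 and Icam1 at 1.26 were higher. Cxcr4, the CXCL12 receptor that holds stem cells in the marrow, was at 10 and 12.4 CPM against 10.6 and 6.81 CPM and did not pass. The lower call of Rac1 rested on WT LK replicate 1, at 559 CPM against 140 CPM in replicate 2.

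Genes of DNA replication and mitosis were lower in LSK. Of 45 tested, 30 (66.7%) were lower and none was higher, against 46.8% lower among all genes of 100 CPM or more. The median was -0.82, where genes of their levels had -0.54, and with library size alone 18 were lower and the median was -0.40. Ccne1, the cyclin that starts S phase, was at 13.7 and 9.53 CPM in LSK and at 75.0 and 74.6 CPM in LK, a difference of -2.61 (adjusted p = 1.86e-05). Mybl2, which drives late cell cycle genes, was at 23.8 and 42.7 CPM against 161 and 143 CPM, a difference of -2.21. Rrm2, the ribonucleotide reductase subunit of S phase, was at 108 and 155 CPM against 574 and 460 CPM, a difference of -1.98. These 3 genes did not overlap between the populations. E2f1 was lower by 2.29, although its LK values, 119 and 38.3 CPM, were far apart. The replicative helicase genes Mcm2 to Mcm7 were all lower, from -0.83 for Mcm6 to -1.42 for Mcm5. Mki67 at 159 and 156 CPM against 170 and 216 CPM and Pcna at 296 and 304 CPM against 380 and 350 CPM did not pass.

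The list of cell cycle inhibitors with the D cyclins and their kinases gave few calls. Of 20 genes tested, 4 were higher and none was lower, with a median of 0.14 and a level median of -0.33, and 7 were higher with library size alone or the deposited values. The 4 higher genes are known to restrain division. Cdkn1a, the inhibitor p21, was at 318 and 331 CPM in LSK and at 116 and 96.5 CPM in LK, a difference of 1.61 (adjusted p = 8.25e-06), and Cdkn1c, the inhibitor p57 of resting stem cells, was at 11 and 14.6 CPM against 1.61 and 3.07 CPM, a difference of 2.07. Txnip was 1.16 higher and Btg2, an antiproliferative gene that is also an immediate-early gene, 0.74 higher. Cdkn1b (p27), Cdkn2c, Ccnd1, Ccnd2, Ccnd3 and Cdk6 did not pass. DNA repair genes and p53 targets gave 12 lower and 2 higher members of 40, with a median of -0.55 and a level median of -0.24, and with Fancd2 at -1.98, Fanca at -1.74, Xrcc2 at -1.69 and Aen at -1.25 lower and Perp at 2.13 and Gadd45b at 1.49 higher. Xrcc2 was uneven in LSK, at 2.24 and 16.0 CPM, and was called in 6 of 17 alternative settings. The counts became 3 lower and 4 higher of the 40 with library size alone.

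The machinery that makes ribosomes was lower in LSK. Of 40 ribosome biogenesis genes tested, 32 (80%) were lower and none was higher, against 46.8% lower among all genes of 100 CPM or more. The median was -0.88 where genes of their levels had -0.54, and with library size alone 15 were lower. Rrp12 was at 17.9 and 33.0 CPM in LSK and at 97.1 and 78.0 CPM in LK, a difference of -1.79. Nop2, an rRNA methyltransferase, differed by -1.53, Gar1, a protein of the pseudouridine machinery, by -1.51 and Noc4l by -1.40. Ncl (nucleolin) was at 628 and 673 CPM against 1370 and 1353 CPM. All 40 genes had a negative difference. Of 75 cytosolic ribosomal protein genes, 1 was higher (Rps27 at 0.75) and 1 was lower (Rpl4 at -0.43), with a median of 0.07 and a level median of -0.54, but 35 were higher and none was lower with library size alone, 34 and none after quantile normalization, and many of these genes share reads with copies and pseudogenes.

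Energy metabolism was measured through 2 lists. Of 75 oxidative phosphorylation subunits, 30 (40%) were lower and none was higher. Among all genes of 100 CPM or more, 46.8% were called lower. The median of the subunits was -0.49, which is close to the -0.54 of genes at their levels. With library size alone 10 were lower at a median of -0.07, and after quantile normalization the median was 0.005. Ndufs1 of complex I differed by -1.29 and Uqcrc1 of complex III by -1.22, the latter at 605 and 696 CPM against 1709 and 1342 CPM. Of 31 genes of glycolysis and the pyruvate dehydrogenase complex, 16 (51.6%) were lower and 2 were higher. Their median of -0.64 is close to the level median of -0.54, and 9 were lower and 2 higher with library size alone. Hk3, a hexokinase of granulocytes, was at 101 and 93.4 CPM in LSK and at 581 and 524 CPM in LK, a difference of -2.49 (adjusted p = 9.68e-09), and Gpi1, the glucose phosphate isomerase, was lower by 1.57 and Pgam1 by 1.54. The 2 higher genes were Slc2a3, the high-affinity glucose transporter GLUT3, at 130 and 177 CPM against 31.3 and 45.6 CPM, a difference of 1.98, and Ldhb at 0.83. The lactate dehydrogenase genes were thus split, with Ldha lower in LSK by 0.83.

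Immediate-early genes, which respond within minutes to growth factors or stress, were higher in LSK. Of 32 tested, 23 were higher and 3 were lower, with a median of 0.94 where genes of their levels had -0.54. Nr4a1, an orphan nuclear receptor, was at 1650 and 1657 CPM in LSK and at 190 and 201 CPM in LK, a difference of 3.07 ± 0.16 (SE, adjusted p = 2.86e-11). Fos was at 6190 and 6589 CPM against 2713 and 2746 CPM, a difference of 1.23 (adjusted p = 6.13e-07). Replicates of either population were close to each other for these 2 genes. Cyr61 differed by 3.40, Klf4 by 2.48 and Nr4a2 by 2.41, while Jun at 0.20 did not pass. The 3 lower genes were Jund at -0.69 and the heat shock genes Hspa1a at -2.19 and Hspa1b at -1.59, which are near-identical copies. Hspa1a was at 41.6 and 50.5 CPM in LSK and at 213 and 212 CPM in LK.

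Interferon-stimulated genes were on the whole higher in LSK. Of 39 genes tested, 19 were higher and 2 were lower, with a median of 1.18 where genes of their levels had -0.24. Ifi44 was at 24.4 and 40.7 CPM in LSK and at 0.996 and 1.28 CPM in LK, a difference of 3.93 (adjusted p = 3.87e-05). Rtp4 was at 67.5 and 108 CPM against 11.6 and 12.4 CPM, a difference of 2.74. The membrane proteins Ifitm1 and Ifitm3, which block viral entry and are known from stem cells, were 2.47 and 1.86 higher, Ifitm3 at 817 and 968 CPM against 243 and 245 CPM. Several genes of the signalling path itself did not pass, with Stat2 at 0.10, Irf9 at 0.13 and the receptor chains Ifnar1 at -0.34 and Ifnar2 at -0.12, whereas Irf7 was 1.60 higher. The lower genes were Cxcl10 at -1.35 and Gbp3 at -0.97.

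The integrated stress response is one of the questions of the study. In this response kinases phosphorylate the translation factor eIF2 alpha, which favours translation of Atf4. Before irradiation, the study reports this pathway as more active in LSK than in LK. It used levels of phosphorylated eIF2 alpha and qRT-PCR of Atf4 target genes. After irradiation, the study reports the activity as unaltered in WT LSK and induced in Ripk3-KO LSK. Which of these conditions the libraries here came from is not settled. RNA levels of the kinases, given here, do not measure phosphorylation of eIF2 alpha. Of 11 genes of the kinases and the OMA1 axis, 6 were lower in LSK and none was higher, with a median of -0.90 and a level median of -0.42. The lower genes were 3 with library size alone at a median of -0.48, 4 with the deposited values and 2 after quantile normalization at a median of -0.38. Oma1, the mitochondrial protease that relays stress, was at 47.5 and 26 CPM in LSK and at 83.3 and 69.3 CPM in LK, a difference of -1.09 (adjusted p = 0.0160) that was called in 10 of 17 alternative settings. The heme-regulated kinase gene Eif2ak1 differed by -1.11, Opa1 by -1.28 and Hspa5, the ER chaperone BiP, by -1.32. Eif2ak4 at 0.45, Eif2ak3 at -1.16 and Eif2ak2 at -0.48 did not pass. Atf4 itself was at 438 and 487 CPM against 350 and 383 CPM (log2 difference 0.34, adjusted p = 0.148).

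Targets of ATF4 gave calls in both directions. Of 30 tested, 12 were lower, 4 were higher and 14 did not pass, with a median of -0.53 and a level median of -0.48. The lower ones were led by Asns (asparagine synthetase) at 32.6 and 43.4 CPM in LSK against 191 and 160 CPM in LK, a difference of -2.18 (adjusted p = 4.07e-06), with the amino acid transporter gene Slc7a5 at -1.67 and Nars, a tRNA synthetase gene, at -1.54. The higher ones were Vldlr at 3.32, Gdf15 at 2.81, Nupr1 at 2.70 and Ppp1r15a at 0.52. Gdf15, a stress cytokine, was at 64.1 and 75.8 CPM in LSK and at 11.3 and 7.33 CPM in LK. With library size alone 7 targets were higher and 6 lower, so the balance of this list depended on the scaling.

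Most genes of necroptosis and the TNF receptor complex did not pass the test. Ripk3, the kinase removed in the other mice of the series, was at 141 and 146 CPM in LSK and at 163 and 167 CPM in LK, a log2 difference of -0.20 ± 0.20 (SE, adjusted p = 0.487) that turned positive with library size alone, the deposited values and quantile normalization. Of 16 genes tested, 4 were lower and 1 was higher, with a median of -0.09 that turned positive under the same 3 scalings and a level median of -0.42. Mlkl, the executor downstream of Ripk3, was at 43.5 and 46.4 CPM against 93.3 and 72.4 CPM, a difference of -0.86, and Ripk1 differed by -1.05, Traf2 by -1.02 and Tnfrsf1b by -1.10. Zbp1, the nucleic acid sensor that can engage Ripk3 and is induced by interferon, was the gene that was higher, at 16.6 and 13.8 CPM against 3.14 and 1.87 CPM, a difference of 2.22. With library size alone 2 genes were higher and none was lower. Casp8, Fadd, Cflar, Cyld, Tradd and Tnfrsf1a did not pass.

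**Figure D4:**
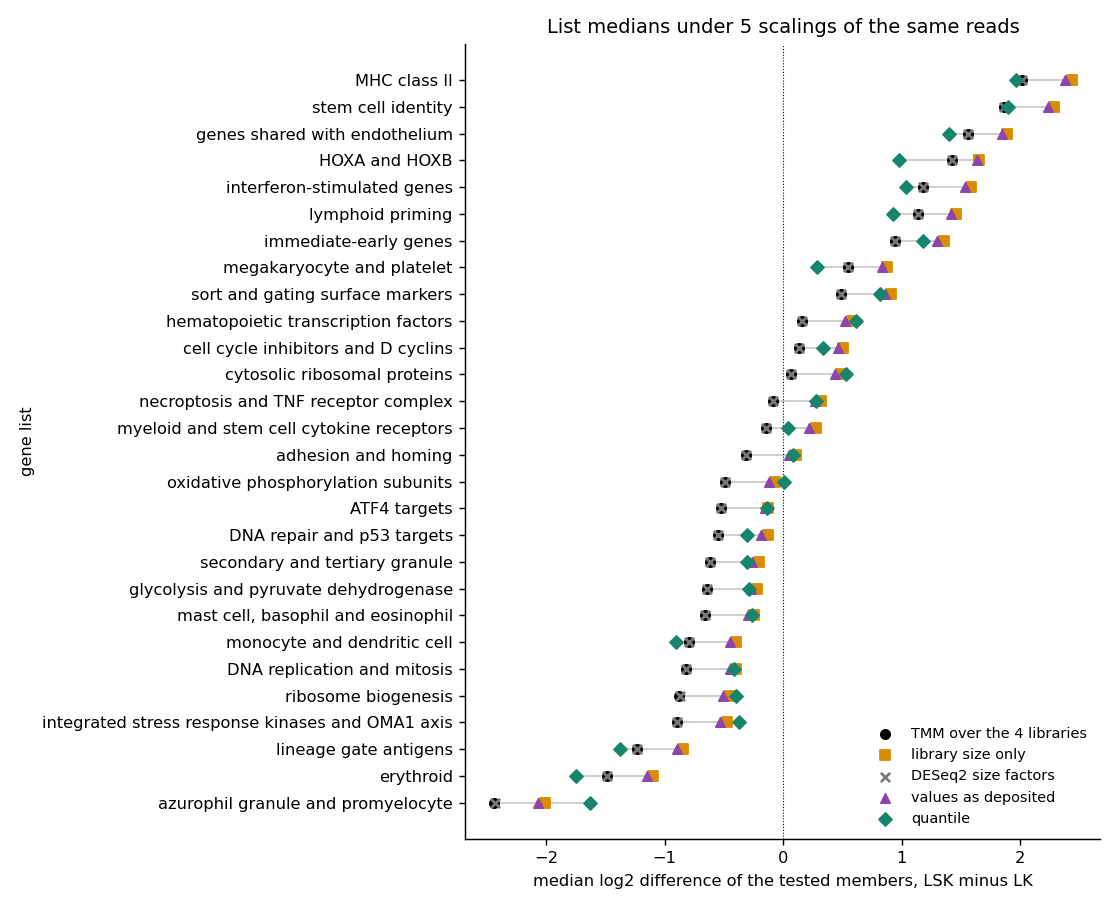
Median log2 difference, LSK minus LK, of the tested members of each list under 5 scalings of the same reads, one symbol per scaling. TMM and DESeq2 size factors nearly coincide, library size alone and the deposited values lie to the right of them, and lists near 0, such as necroptosis (-0.09 with TMM) and adhesion (-0.32), change sign.

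Some of the largest differences belonged to genes outside these lists. Among the 12 largest in LSK, Myl10, a myosin light chain gene, was at 167 and 217 CPM against 1.76 and 5.28 CPM in LK, a log2 difference of 5.52 (adjusted p = 6.20e-09). Lax1, an adaptor that limits signalling of lymphocyte receptors, differed by 4.79 and Npdc1 by 4.63. Gm5111 at 4.77, the monocarboxylate transporter gene Slc16a11 at 4.36, Mamdc2 at 4.31 and the uridine phosphorylase gene Upp1 at 4.31 completed the set. Each was below 6 CPM in both LK libraries. Among the 12 largest in the other direction, Cd300lb, an activating receptor of myeloid cells, was at 0.517 and 0 CPM in LSK and at 30.6 and 32.8 CPM in LK, a difference of -4.73 (adjusted p = 9.17e-06). Pklr, the pyruvate kinase of liver and red cells, differed by -4.26, the annexin gene Anxa3 by -3.87, Mefv, which encodes pyrin, by -3.83, the porphyrin transporter gene Abcb6 by -3.81 and the sphingomyelin synthase gene Sgms2 by -3.76.

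Markers of other marrow cells were measured in the same libraries. For T cells the summed level of 7 markers was 83.9 to 88.3 CPM in LSK and 20.2 to 22.2 CPM in LK, most of it from Lck at 64.2 and 53.9 CPM against 12 and 12.5 CPM. Cd3g was 1.77 higher as well, at 8.79 and 8.72 CPM against 1.84 and 1.87 CPM, while Cd3e, Cd3d, Cd4, Cd2 and Cd8a did not pass or were too low. The 7 B-lineage markers summed to 77.1 to 100 CPM against 77.9 to 79.2 CPM, and 2 of them were called higher in LSK. Ms4a1 was higher in LSK at 9.48 and 7.29 CPM against 1.46 and 0 CPM. Plasma cell markers summed to 211 to 215 CPM against 6.13 to 7.24 CPM, of which Igj was the main part in LSK. Of the 3 plasma cell markers, 2 were called higher in LSK. For the 5 stromal genes the sums were 42.1 to 62.9 CPM in LSK and 10.8 to 11.6 CPM in LK, and 2 were called higher in LSK. Cxcl12 was 3.02 higher at 8.79 and 9.98 CPM. Stromal and NK genes, and likewise Cd3g and Ms4a1, stood at levels where the median gene was itself higher in LSK. That median was 0.99 for genes of 2 to 5 CPM, the class of Ms4a1, and 0.64 for genes of 5 to 10 CPM, the class of Cd3g. Neutrophil markers summed to 358 to 422 CPM against 650 to 655 CPM, macrophage markers to 31.1 to 40.8 CPM against 80.0 to 84.2 CPM, and NK markers to 7.82 to 20.3 CPM against 2.73 to 4.06 CPM, with Klrd1 at 0 in all 4 libraries. The sums lay closer together for erythroblast, platelet and endothelial markers, at 31.7 to 37.2 CPM against 42.3 to 51.7 CPM, 94.9 to 154 CPM against 140 to 145 CPM and 98.7 to 109 CPM against 93.9 to 94.8 CPM. The part of such cells in the gene groups above was not tested.

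The same contrast was then read in the 4 libraries from Ripk3-KO mice, whose means share no library with the WT contrast. Scaling, spread and KO calls came from a fit of all 8 libraries, so these calls are not independent of the WT libraries. Ripk3 was at 2.99 and 0.941 CPM in KO LSK and at 18.4 and 12.2 CPM in KO LK, against 143 to 169 CPM in the 4 WT libraries on the same scale. Of the 3570 genes called in the 4-library WT fit, 3565 were also tested in the fit of all 8 libraries. Of these, 3262 (91.5%) had the same sign in KO, and 1883 were called in the same direction there. That is 52.8% of these WT calls and 62.0% of the 3036 KO calls, while 12 were called in the opposite direction. Of the 368 list genes called in WT, 358 had the same sign in KO, 294 were also called and 2 were called in the opposite direction. All 30 stem cell genes, all 12 azurophil genes and all 24 erythroid genes called in WT kept their sign in KO, and 27, 12 and 19 of them were called there. The 2 opposite genes were Jund and Rac1, both of them uneven between the WT LK libraries, with Jund at 711 and 424 CPM. Testing the difference of the 2 contrasts itself gave 56 genes of 15757 (29 higher and 27 lower in KO), with 1555 at an unadjusted p under 0.05. All WT libraries had Xist reads and none of Y-linked genes, while the KO libraries had Y-linked reads and hardly any of Xist, so genotype and sex cannot be told apart in this test.

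**Figure D5:**
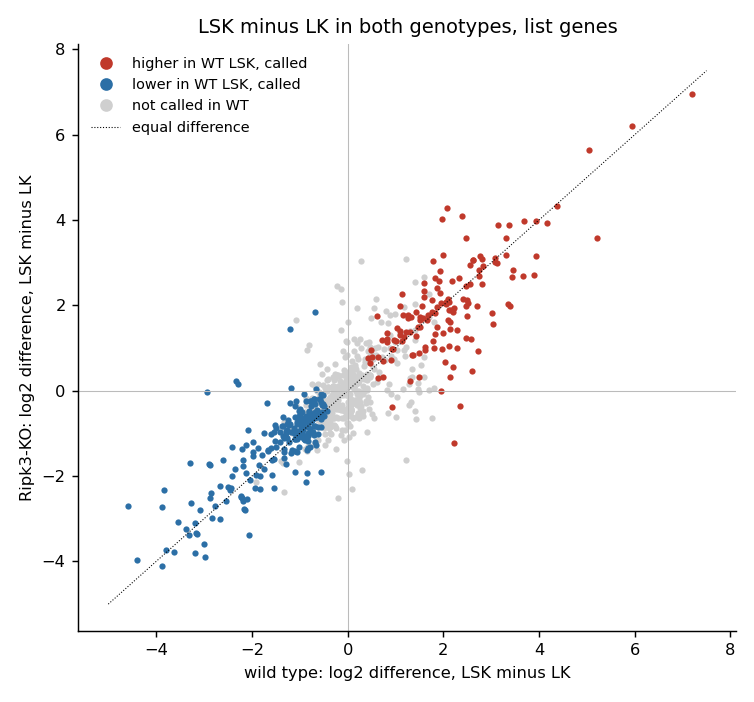
Log2 difference, LSK minus LK, of the tested list genes in WT (horizontal, 4-library scaling) and in Ripk3-KO (vertical, 8-library scaling), coloured by the WT call, with the dotted line marking equal differences. Of 368 genes called in WT, 358 lie on the same side of 0 in both genotypes, and Igj (7.20 in WT) and Ly6a (5.93) are at the upper right.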

How the data were processed

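RNA from sorted bone marrow cells was made into TruSeq Stranded mRNA libraries, and the submitters' processing notes name TopHat and the mm9 genome. The gene counter and the tool versions were not given in the sources used here. The authors deposited 1 file per library with 1 value per gene, headed FPKM. The deposited values were a signal not divided by gene length: every value was a whole number of reads, within 0.01, times what 1 read was worth in its library (0.0679 to 0.104 in WT), so reads were recovered by division. The step matches CPM scaled by TMM within a population, hence the WT libraries were rescaled together here.

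CPM came from recovered reads with TMM over the 4 WT libraries. Genes with a mean CPM of at least 1 were tested on log2(CPM + 1) with limma 3.58.1 (trend, R 4.3.3) and Benjamini-Hochberg adjustment. The fit was also run on simulated counts that held no general shift with level, and no result here rests on that run. Alternatives were a pseudocount of 0.1, no filter, a mean CPM of at least 5, library size alone, DESeq2 size factors, the deposited values, quantile normalization, no trend, a replicate block, edgeR 4.0.16 quasi-likelihood and DESeq2 1.42.0 Wald tests on the reads, a fit of all 8 libraries, thinning to the smallest library, leaving out each library and a 2-fold minimum. The KO comparison used limma on 8 libraries with TMM over all of them. With 2 libraries against 2, an exact two-sided permutation test of 1 gene cannot go below p = 0.333 and was not used.

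The comparison, the 28 gene lists and the 10 marker lists were chosen with earlier results of these data known. Named were all surface and lineage markers, the 12 largest called differences in each direction, the 4 largest of each list and, where there were at most 3, members called against its majority, Ripk3, the genes with most reads, and the 6 genes with the smallest adjusted p for the difference between genotypes. Other list members were named after their values were seen. Promoters are from a RefSeq table (GRCm38.p6), matched by symbol for 4 of 5 genes, the fifth being Ly6a. Replicate numbers were checked for pairing: deviations of same-numbered libraries had a correlation of -0.01 over genes. Some genes that the rule or the lists include are not reported here.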

Additional observations from a re-analysis of the deposited data

Results flagged for a closer look

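The LSK minus LK difference was tested between genotypes (KO minus WT, limma over 8 libraries), and the 6 genes with the smallest adjusted p are given here as values, with genotype and sex of the mice not to be told apart. Mir682 differed by -4.02 on the log2 scale (adjusted p = 6.79e-07), being at 10.5 and 11.8 CPM in KO LSK and between 130 and 205 CPM in the other 6 libraries. DQ693239 differed by -5.02 (adjusted p = 0.000133), with 0.0712 and 0.342 CPM in KO LSK and 28.5 to 44.0 CPM elsewhere. The ribosomal protein genes Rpl21 and Rpl41 differed by -2.39 and -1.98, Rpl21 at 42.0 and 40.9 CPM in KO LSK against 193 to 256 CPM elsewhere, and both can share reads with copies. In all 4 of these genes the KO LSK libraries were the low ones.

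Srsf2, a splicing factor gene, differed by 3.96 and Lamp1, a lysosomal membrane protein gene, by 3.03 (adjusted p = 0.000757 for both). Both were lower in LSK than in LK in WT, by 1.97 and 2.11, and higher in KO. The WT LK replicates were uneven for both, at 570 and 177 CPM for Srsf2 and at 631 and 299 CPM for Lamp1.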

How the results depend on the processing

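The counts of 1341 higher and 2229 lower genes moved by over 1.5 times with library size alone (2052 and 767), with the deposited values (2085 and 871), with quantile normalization (817 and 791), without the filter on low values (566 and 1414) and without the trend (551 and 212), and a 2-fold minimum left 1207 lower genes. Leaving out 1 library gave 60 to 928 higher and 276 to 1700 lower genes, fewest without WT LSK replicate 2. The 56 genes differing between genotypes became 3 without the filter. Other counts stayed within 1.5 times: the pseudocount of 0.1 gave 1060 and 1991, a mean of 5 CPM 997 and 2471, DESeq2 size factors 1413 and 2222, edgeR 970 and 1846, the Wald test 1430 and 2196, all 8 libraries 1415 and 2354 and thinning 1409 and 2228. With the replicate block 1515 genes were higher, 2357 lower and 50 differed between genotypes, and the numbers do not pair the libraries. The cause of these moves was not tested beyond the settings themselves. Of the values of 151 named genes under the alternatives, 2235 kept direction and side of the threshold, 303 fell short of it, 8 newly passed and 16, of 6 genes that were called under neither setting, changed sign. Under library size, the deposited values and quantile normalization Kit came to 0.13, 0.074 and 0.22, Ripk3 to 0.22, 0.17 and 0.28 and DQ693239 to 0.28, 0.23 and 0.094, and Itgam to 0.032 under library size. Leaving out 1 library gave -1.07 to 0.35 for Itgam, -0.33 to 0.069 for DQ693239, -0.022 to 0.22 for Rpl21 and -0.24 to 0.33 for Rpl41. Of the list genes named in the report, those called in 8 or fewer of the 17 alternatives were Cd48 (3), Xrcc2 (6), Hoxb2, Il6ra, Rac1 and Traf2 (7) and Cd177, Cd209a, Cdh2 and Jund (8). Of the called genes, 46 higher and 139 lower ones were called under all 17 alternatives. Depth limits the lowest genes, since 3 reads are 0.191 to 0.307 CPM in the WT libraries.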
